A study of Mus musculus with 12 samples.

Results

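Of 77655 autosomal tiles of 1 kb, 208 (0.268%) were at least 5 percentage points more methylated in each of 6 nonleukemic libraries without Tet2 than in any of 3 libraries that kept Tet2 and carried Nras G12D. These 208 regions are called Tet2-null-high tiles here. A tile is a stretch between whole kilobases of mm9 with at least 3 CpGs (a cytosine followed by a guanine, the site of most DNA methylation in mammals), each covered by at least 10 reads in all 12 libraries. Its level is the percent of reads that kept a C after bisulfite treatment, which leaves methylated cytosines in place and turns the others into T. The gap of a tile is the level of the lowest of the 6 libraries minus that of the highest of the 3, and a gap of at least 5 points made a tile a member. Chromosome 3, which carries both Tet2 and Nras, was left out by that rule, as were the sex chromosomes. The tiles were thus chosen by the methylation levels of 9 libraries. The 3 libraries of leukemic double mutants had no part in it, so what they show at these tiles is the measurement of interest.

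All libraries came from bone marrow of C57BL/6 mice with hematopoietic-tissue-specific conditional mutations, taken at 6 months of age. The cells were sorted as LSK (lineage negative, Sca1+, cKit+), the fraction that holds blood stem cells and early progenitors. No RNA was measured, so the label LSK could not be checked against marker genes. There were 4 groups of 3 libraries: Nras(G12D), an active form of the small GTPase Nras, which signals growth, with no Tet2 change in the label (N1 to N3); Tet2(-/-) alone (T1 to T3); Tet2(-/-) Nras(G12D) from animals without leukemia (TN1 to TN3); and Tet2(-/-) Nras(G12D) labelled leukemic (L1 to L3). The leukemic group was read from the letter L in the titles together with the series design; its descriptions also carry the letters BMT, which the labels do not explain. Wild-type libraries were not analysed here, so Tet2 loss was compared only with Nras(G12D) cells. The labels do not say that replicates came from separate animals, so a p-value here reflects the scatter among libraries, part of which may be technical.

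Tet2 is a dioxygenase that oxidises 5-methylcytosine to 5-hydroxymethylcytosine and further products, which can be lost through cell division or base excision repair. It is often mutated in myeloid malignancy and in clonal blood cell expansion, and its loss in blood stem cells is known to favour self-renewal. Bisulfite sequencing reads 5-methylcytosine and 5-hydroxymethylcytosine both as C, so the levels here are the sum of these marks.

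Sequence could be attached only to tiles whose CpG spacing matched a promoter. The order and spacing of CpGs in 3 Tet2-null-high tiles matched 1 RefSeq promoter each, out of 32851 promoter sequences of 300 bases (250 before and 50 after the start, build GRCm38.p6). At least 6 CpGs had to match, with no listed CpG of the window and no promoter CpG between the outer matches left over. A tile over a gene start with fewer listed CpGs could not be matched, so other tiles may also lie over gene starts. The promoter's chromosome was not used in the search and was the tile's own in 3 of 3 matches. The stretches of the Muc20 and 1700030C10Rik promoters are shown because these are the tiles whose CpGs can be placed on a gene. Both are written 5′ to 3′ on the gene's strand, with the CpGs that matched in capitals. Muc20 encodes a cell-surface mucin, and its stretch runs from 104 bases to 1 base before the start, with 3 of the 6 matched CpGs. The 1700030C10Rik stretch runs from 247 to 116 bases before the start, with 9 matched CpGs.
Muc20: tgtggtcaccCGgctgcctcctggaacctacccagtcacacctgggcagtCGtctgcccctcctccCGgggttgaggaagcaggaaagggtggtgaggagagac
1700030C10Rik: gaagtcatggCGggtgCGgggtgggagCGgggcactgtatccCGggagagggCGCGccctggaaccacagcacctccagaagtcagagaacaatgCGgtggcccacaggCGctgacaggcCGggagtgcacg
The remaining match, Gm33197, had 7 matched CpGs but only 1 of them inside its tile.

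The Tet2-null-high tiles were partly methylated regions with few CpGs. In 168 of 208 (80.8%) the mean level of the Nras(G12D) libraries was 20 to 80%, against 13.3% of all eligible tiles. Another 18 (8.65%) were under 20% in Nras(G12D), where 32.4% of all tiles lay, and 22 (10.6%) were over 80%, where 54.3% lay. The median number of CpGs was 4, against 5 over all tiles, and 12 tiles (5.77%) had 10 or more CpGs, against 24.9%. The gap is bounded at both ends of the scale, so tiles near 0 or 100% could enter less easily. Reads per tile and library were summed over its CpGs, so a read over several CpGs was counted at each. These sums ranged from 30 to 4965, with a median of 351.5 against 451 over all tiles, which had more CpGs by median. The Tet2-null-high tiles lay on 18 chromosomes, at 0.154% of the eligible tiles of chromosome 13 to 0.548% of those of chromosome 16. No member adjoined another.

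Levels followed the choice in the first 9 libraries, which is a description and no test. The median level over the 208 tiles was 55.0%, 57.4% and 52.8% in N1 to N3. It was 79.0%, 80.7% and 78.3% in T1 to T3, and 74.9%, 75.3% and 75.5% in TN1 to TN3. The leukemic libraries are labelled Tet2(-/-) as well, which was not checked here. On chromosome 3, which carries Tet2, 265 positions were listed in all Nras(G12D) and leukemic libraries and no other. All Tet2(-/-) and nonleukemic double mutant libraries alone shared 177, and these with the leukemic libraries 9. Whether this bears on the label was not tested. The median of the leukemic libraries was 47.4%, 51.1% and 49.2% in L1 to L3. Each leukemic library thus had a median under that of every other library, the Nras(G12D) libraries included. Over all 77655 tiles the leukemic libraries were the lowest too, at 73.9% to 77.6% against 84.4% to 88.1% in the other 9. Their distance from the nonleukemic double mutants was a median of 17.8 points at the Tet2-null-high tiles, and 2.04 points over all tiles. Over the 10126 other tiles with an Nras(G12D) mean of 20 to 80%, the class of most Tet2-null-high tiles, the leukemic group differed from the nonleukemic double mutants by a median of -7.08 points.

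**Figure D1:**
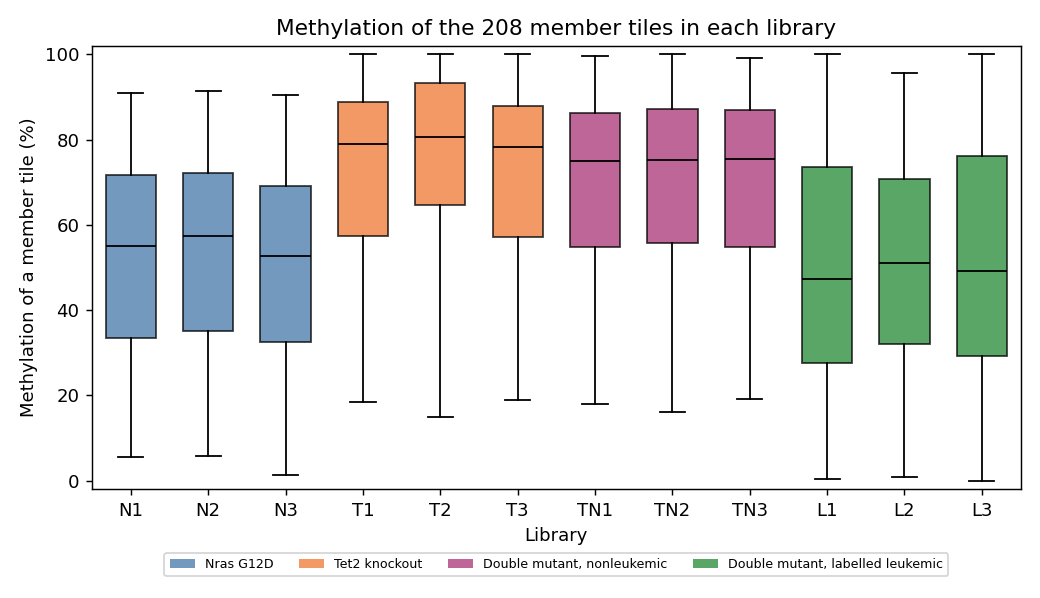
Methylation (%) of the 208 Tet2-null-high tiles in each of 12 libraries. Boxes show the quartiles, the line the median and whiskers the lowest and highest tile. Libraries T1 to TN3 have medians of 74.9% to 80.7%, and L1 to L3 have medians of 47.4% to 51.1%, below those of N1 to N3.

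Tile by tile, the leukemic libraries mostly left the Tet2-null range. All 3 were below the lowest of the 6 Tet2-null nonleukemic libraries in 123 tiles (59.1%, exact 95% binomial interval 52.1 to 65.9%, which covers counting error only). The share over all eligible tiles was 13.1%, and it was 16.9% over the 9564 tiles of 20 to 80% in Nras(G12D) with no gap. The rule chose the 6 libraries high here, which favours this pattern and the next. All 3 leukemic libraries were below every nonleukemic double mutant library in 133 (63.9%, against 19.9% of all tiles). All 3 were at or below the highest Nras(G12D) library in 67 tiles (32.2%), while 56.2% of all tiles had this pattern; most tiles have overlapping groups, and in a Tet2-null-high tile the highest Nras(G12D) library is at least 5 points under the others by choice. In 36 tiles (17.3%, against 14.7% of all tiles) all 3 were below even the lowest Nras(G12D) library. The reverse was rare. All 3 leukemic libraries stayed at or above the lowest Tet2-null library in 5 tiles (2.40%, against 36% of all tiles), and above the highest of the 6 in 1 tile (0.481%, against 0.867%). In 22 tiles (10.6%, against 2.92%) all 3 were above the highest Nras(G12D) library, a pattern that the choice of low Nras(G12D) libraries favours.

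Each leukemic library gave much the same picture alone. L1 was at or below the highest Nras(G12D) library in 125 tiles (60.1%, against 76.3% of all tiles), L2 in 133 (63.9%, against 84.8%) and L3 in 130 (62.5%, against 77.8%), so none of these shares is above its background. L1 lay inside the gap in 44 tiles, L2 in 44 and L3 in 29. L1 was at or above the lowest Tet2-null library in 39 tiles (18.8%, against 66.6% of all tiles), L2 in 31 (14.9%, against 56.1%) and L3 in 49 (23.6%, against 63.5%). In most tiles outside the rule the ranges overlap, so both backgrounds are high. The lowest of the 3 was L1 in 73 tiles, L2 in 60 and L3 in 75, so no library was low throughout.

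The leukemic libraries also disagreed with each other more than the libraries of other groups did. The median SD over 3 libraries was 9.31 points among the leukemic libraries, 4.04 among Nras(G12D), 5.72 among Tet2(-/-) and 3.35 among nonleukemic double mutant libraries. The last 3 are held down by the choice, which needs a gap between them. Among those 10126 other tiles the median SDs were 9.20, 6.09, 7.31 and 4.75 points in the same order. A range of over 30 points between replicates occurred in 35 Tet2-null-high tiles for the leukemic group, 2 for Nras(G12D), 7 for Tet2(-/-) and 0 for the nonleukemic double mutant. In 66 tiles 1 leukemic library was at or below the highest Nras(G12D) library while another was at or above the lowest Tet2-null library.

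**Figure D2:**
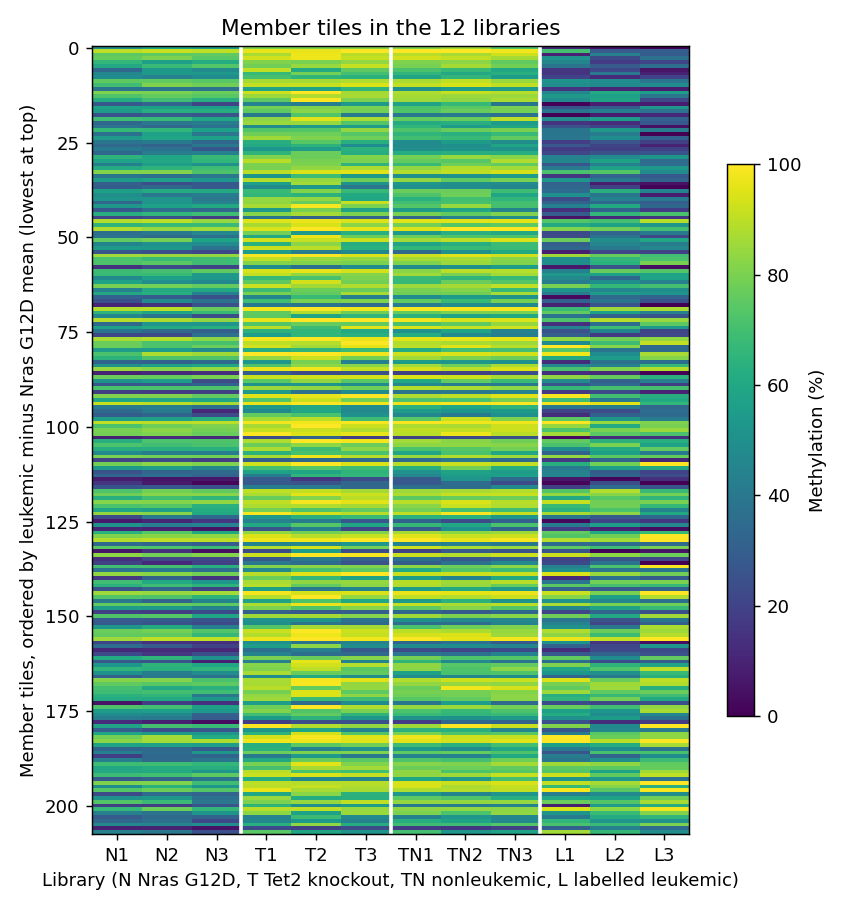
Methylation (%, colour) of each Tet2-null-high tile (rows) in each library (columns), with rows ordered by the leukemic mean minus the Nras(G12D) mean, lowest at the top. Columns T1 to TN3 are brighter than N1 to N3 in every row because the rule chose them so; L1 to L3 are darker than N1 to N3 at the top and often differ from each other further down.

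The leukemic group was next compared with the nonleukemic double mutant, which has the same 2 mutations by its label. Its mean was lower in 198 of 208 tiles (95.2%, against 71.7% of all tiles and 79.1% of the other tiles of 20 to 80%). A quasi-binomial test of the reads over all 77655 tiles, with Benjamini-Hochberg adjustment, took as called any tile that differed by 10 points or more with an adjusted p below 0.05. It called 88 Tet2-null-high tiles lower in the leukemic group (42.3%, against 4.27% of all tiles) and 1 higher (0.481%, against 0.124%). Of the Tet2-null-high tiles 80.8% were of 20 to 80% in Nras(G12D), against 13.3% of all tiles. No share called was computed for that class alone. Without adjustment, 144 of the 208 had p below 0.05 and were lower (against 20.1% of all tiles), and 1 was higher (against 2.27%). The nonleukemic libraries had been chosen high at these tiles, so part of each difference is set by the choice. Left out one at a time, the nonleukemic libraries took the number of calls from 89 to 49 (without TN1), 44 (without TN2) and 46 (without TN3), and limma on log2 ratios of methylated to unmethylated reads called 3.

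Against Tet2(-/-) alone the same model called 112 Tet2-null-high tiles lower in the leukemic group (53.8%, against 8.04% of all tiles) and 1 higher (0.481%, against 0.164%). Without adjustment 158 had p below 0.05 and were lower (against 25.1% of all tiles) and 1 higher (against 2.7%). The median difference was -20.0 points, against -2.52 over all tiles. T1 to T3 had been chosen high here, so part of this difference and of the excess over 8.04% is set by the choice. With limma the number of calls was 38. Over the other tiles of 20 to 80% the median was -8.68 points. These tests share the leukemic libraries, so the counts are not independent of each other.

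Set against Nras(G12D), where the choice works the other way, the leukemic group went in both directions. The difference over the tiles ran from -49.9 to 31.2 points, with quartiles of -8.76 and 7.29. Its median was -1.30 points, against -1.43 over all tiles and -4.55 over the 10126 other tiles of 20 to 80%. The leukemic mean was above the Nras(G12D) mean in 97 tiles (46.6%, against 32.5% of all tiles). The test called 23 tiles lower in the leukemic group (11.1%, against 2.23% of all tiles) and 1 higher (0.481%, against 0.109%). Without adjustment 37 of the 208 had p below 0.05 and were lower (against 16.5% of all tiles) and 22 higher (against 3.09%). The choice of low Nras(G12D) libraries favours tiles that are higher in the leukemic group. Without adjustment, the share of lower tiles was close to that over all tiles. These calls were the least stable: limma called 0 (22 lower and 12 higher without adjustment), and the number of calls was 11 without N1, 9 without N2 and 9 without N3. The 1 call in the higher direction became 6 without L1, 4 without L2 and 2 without L3. The sign of the median was not stable either, at 3.16 points with N1 left out of the choice, 2.54 with N2 left out, 0.0787 with T1 left out and 0.276 with L3 left out.

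The 2 nonleukemic Tet2-null groups were set side by side as a description, since the rule used all 6 of their libraries. The rule acts on the lowest of the 6, so a group with more scatter needs a higher mean to pass, and Tet2(-/-) had more scatter (a median SD of 7.31 against 4.75 points in the other tiles of 20 to 80%). The nonleukemic double mutant was below Tet2(-/-) alone in 146 of 208 tiles by mean (70.2%, against 57.0% of all tiles), with a median difference of -2.46 points against -0.193. All 3 Tet2(-/-) libraries were above all 3 double mutant libraries in 33 tiles (15.9%, against 7.11% of all), and the reverse held in 4 (1.92%, against 4.15%). The quasi-binomial test called 0 of these tiles lower (against 0% of all tiles) and 0 higher (against 0.00386%). Before adjustment, 7 were lower and 0 higher with p below 0.05 (against 2.42% and 0.971% of all tiles). limma called 0 as well, with 9 lower and 0 higher at that unadjusted level.

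Among tiles with a gap of at least 2 points, those with a wider gap had a larger median distance between the leukemic libraries and the nonleukemic double mutant, and a median near 0 from Nras(G12D). Over the 49 Tet2-null-high tiles with a gap of at least 10 points, all 3 leukemic libraries were under the Tet2-null range in 75.5%, and the median difference was -24.8 points from the nonleukemic double mutant and 0.368 points from Nras(G12D). Over the 159 with a gap of 5 to 10 points these values were 54.1%, -15.5 and -1.53 points. Just outside the rule, 487 tiles with a gap of 2 to 5 points had 43.5%, -10.1 and -0.00996 points. The order did not extend below that: 2992 tiles with a gap of 0 to 2 points had 18.1%, -0.287 and 0.116 points, and the 73968 tiles with no gap had 12.5%, -2.07 and -1.62 points. A wider gap takes a higher nonleukemic level, a lower Nras(G12D) level or both, so all of these quantities move with the choice. Among tiles of 20 to 80% in Nras(G12D), the median difference from Nras(G12D) was -4.68 points with no gap and -2.53 at 0 to 2 points. It was 0.0493 points at a gap of 2 to 5, -2.13 at 5 to 10 and 0.368 at 10 or more.

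**Figure D3:**
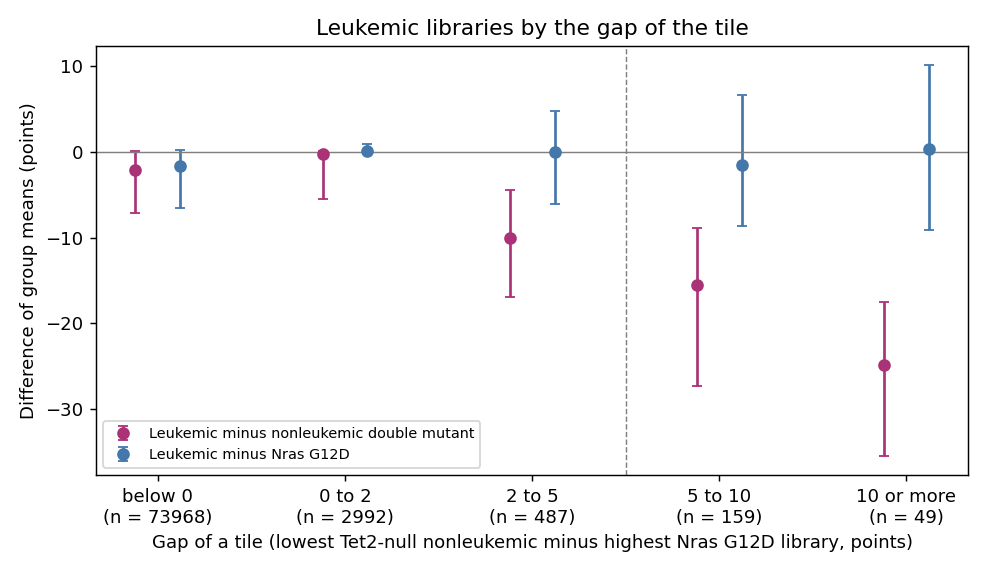
Difference of group means (percentage points) by the gap of the tile, for the leukemic group minus the nonleukemic double mutant (purple) and minus Nras(G12D) (blue). Points are medians and bars the quartiles over tiles; the dashed line marks the rule's threshold. The purple medians are -2.07 points without a gap, -0.287 at 0 to 2 points and -24.8 in the widest. The blue medians stay between -1.62 and 0.368 points. Both differences move with the choice.

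Single tiles show the kinds of pattern. Tiles are given by mm9 coordinates, and for those with no promoter match no gene or sequence is given. The Tet2-null-high tile with at least 5 CpGs and the widest gap, 17.7 points, was chr7:19595000-19595999 with 7 CpGs. Its level was 43.0%, 34.8% and 38.9% in N1 to N3, 60.7%, 77.7% and 74.4% in T1 to T3, and 72.4%, 70.0% and 78.1% in TN1 to TN3. L1, L2 and L3 were at 38.9%, 49.8% and 68.6%, so L1 was within the Nras(G12D) range, L2 inside the gap and L3 inside the Tet2-null range. The leukemic mean of 52.4% ± 15.04 (SD, n = 3) was 21.1 points under the nonleukemic double mutant (adjusted p = 0.0385, quasi-binomial test). The rule chose T1 to T3 and TN1 to TN3 high at this tile and at all Tet2-null-high tiles named below. Part of any leukemic difference from them is therefore set by the choice.

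The second widest gap with at least 5 CpGs, 17.6 points, was at chr16:36709000-36709999, which has 19 CpGs. The reads summed over its CpGs were at least 1389 in every library. N1 to N3 were at 33.6%, 42.4% and 44.1%, T1 to T3 at 65.1%, 77.2% and 62.1%, and TN1 to TN3 at 61.7%, 63.1% and 62.3%. L1 to L3, at 21.1%, 25.6% and 25.8%, were all under the lowest Nras(G12D) library. The leukemic mean differed by -15.9 points from Nras(G12D) (adjusted p = 0.0254, quasi-binomial test) and by -38.2 points from the nonleukemic double mutant (adjusted p = 7.9e-05). Of its 19 CpGs, 11 had all 6 Tet2-null libraries above all 3 Nras(G12D) libraries. The separated CpGs were mostly in the second part of the tile: at 36709651 the group means were 36.5% in Nras(G12D), 87.6% in Tet2(-/-), 88.3% in nonleukemic double mutants and 13.02% in leukemic libraries. Near the start of the tile, at 36709150, all 12 libraries were at 0%.

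Other wide gaps showed the same order. At chr15:12807000-12807999 (5 CpGs, gap 17.1 points) N1 to N3 were at 33.0%, 52.2% and 44.5%, T1 to T3 at 83.6%, 76.9% and 91.2%, and TN1 to TN3 at 69.3%, 71.0% and 70.2%. L1 to L3 were at 32.0%, 33.8% and 30.2%, with L2 at the low end of the Nras(G12D) range and L1 and L3 under it (difference -11.3 points, adjusted p = 0.289, quasi-binomial test). The tile chr10:80867000-80867999 (7 CpGs) separated all 4 groups. Tet2(-/-) was highest at 85.1%, 84.6% and 73.4%, and the nonleukemic double mutant followed at 61.6%, 62.8% and 55.2%. Nras(G12D) was at 33.5%, 39.7% and 41.9%, and the leukemic libraries were lowest at 14.99%, 13.01% and 27.01%. At chr10:5725000-5725999 (8 CpGs) the Nras(G12D) libraries agreed closely, at 38.4%, 38.6% and 38.0%, the 6 Tet2-null libraries were at 50.8% to 65.5%, and L1 to L3 were at 15.6%, 10.8% and 7.52%.

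In the remaining named wide gaps the leukemic libraries took different positions. At chr14:64392000-64392999 L1 to L3 were at 62.0%, 48.6% and 46.2%, between the Nras(G12D) mean of 41.9% ± 9.66 and the nonleukemic mean of 67.1% ± 1.04 (SD, n = 3). At chr6:140655000-140655999 the Nras(G12D) mean was 56.8% ± 0.277 (SD, n = 3), and L1 to L3 were at 26.1%, 29.6% and 52.0%. At chr9:103049000-103049999 they were at 37.9%, 31.0% and 26.1%, within the Nras(G12D) range of 23.95% to 46.3%. At chr8:127966000-127966999 they were at 63.0%, 67.3% and 69.4%, under the lowest Tet2-null library at 77.8%, while N1 to N3 ranged from 40.0% to 65.6%.

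Some tiles fell far below Nras(G12D) in leukemia. The largest difference from Nras(G12D) among Tet2-null-high tiles with at least 5 CpGs was at chr16:30186000-30186999 (6 CpGs). N1 to N3 were at 49.2%, 58.4% and 55.6%, the 6 Tet2-null nonleukemic libraries at 72.9% to 85.8%, and L1 to L3 at 10.2%, 3.49% and 0% (difference -49.9 points, adjusted p = 0.000746, quasi-binomial test). At chr9:63818000-63818999 L1 to L3 were at 38.5%, 28.9% and 36.5% against 60.4%, 67.5% and 73.2% in N1 to N3. At chr7:26559000-26559999 they were at 15.3%, 39.7% and 9.16% against 46.3%, 54.4% and 53.4%. All of these were called in the same test, with adjusted p = 0.00559 and 0.0281 for the last 2. They were picked for this same difference, and limma called 0 of all 77655 tiles lower than Nras(G12D).

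The fall at chr10:80069000-80069999 covered 23 CpGs, with at least 1407 reads per library summed over these CpGs. N1 to N3 were at 69.2%, 80.6% and 78.5%, T1 to T3 at 90.7%, 91.1% and 94.8%, and TN1 to TN3 at 90.6%, 93.9% and 90.4%. L1 to L3 agreed within 2 points, at 49.2%, 47.8% and 48.1%. Single CpGs in it agreed far less: at 80069412 L1 to L3 were at 0%, 12.6% and 0% while N1 to N3 were at 25.7%, 44.2% and 70.5%, and at 80069394 L1 to L3 were at 100%, 22.5% and 83.0%. Only 3 of its 23 CpGs had the 6 Tet2-null libraries above all Nras(G12D) libraries. The tile's separation thus rested on the sum of its CpGs.

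**Figure D4:**
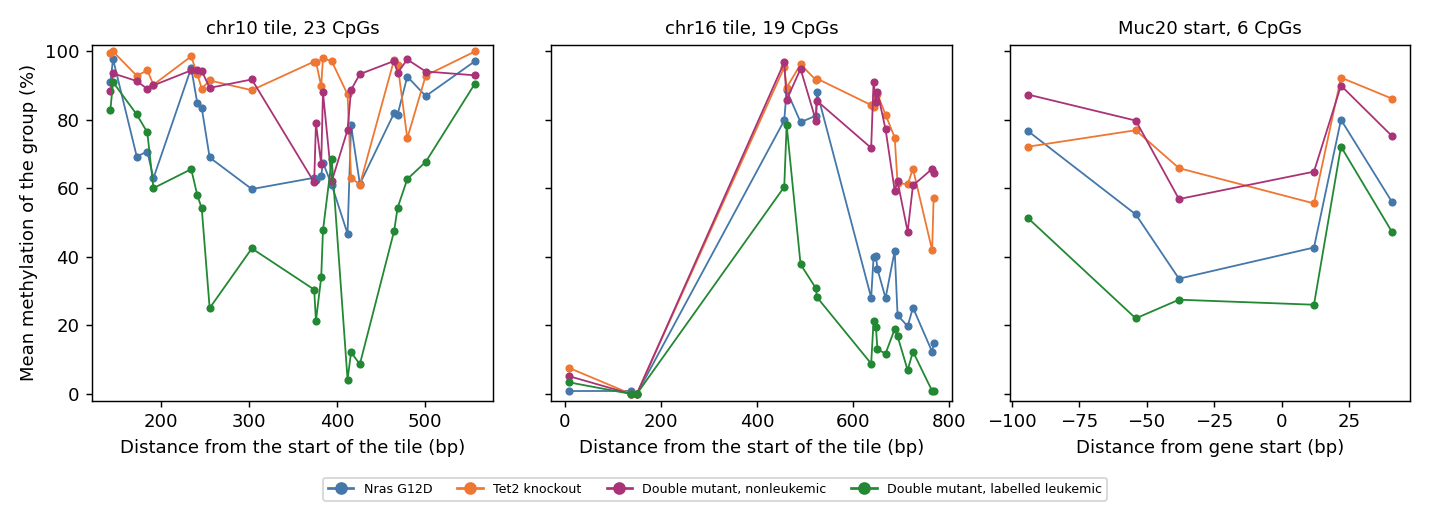
Mean methylation (%) of each group at single CpGs, for 2 Tet2-null-high tiles (distance from the start of the tile, bp) and the matched CpGs of Muc20 (distance from the gene start, bp). Each point is the mean of 3 libraries. In the chr16 tile, from 638 bp on, the leukemic means are at most 21.3% and both Tet2-null nonleukemic groups are at least 41.9%.

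One tile rose in leukemia instead. At chr7:25988000-25988999 (7 CpGs) Nras(G12D) was low at 9.14%, 10.1% and 5.52%, T1 to T3 were at 22.6%, 19.3% and 23.2%, and TN1 to TN3 at 18.3%, 16.1% and 19.1%. L1 to L3 were at 31.1%, 43.4% and 34.8%, above all 9 other libraries. The leukemic mean was 18.6 points above the nonleukemic double mutant (adjusted p = 0.00801, quasi-binomial test) and 28.2 points above Nras(G12D) (adjusted p = 0.000527). It was the only Tet2-null-high tile called higher in the leukemic group in the comparisons with each of the other 3 groups, and limma called it in none of them. The call against the nonleukemic double mutant was also lost without TN2, and the call against Tet2(-/-) without T1, T2 or T3 and in the fit on 6 libraries. At each of its 7 CpGs the leukemic mean was the highest of the 4 group means.

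By mean, the leukemic group was above both Tet2-null nonleukemic groups in 7 of the 208 tiles, 6 of which had fewer than 5 CpGs; the tile just described is the other. The next 4 tiles with at least 5 CpGs, ranked by the leukemic level against the 6 Tet2-null libraries, were at or under the mean of one or both of these groups. At chr14:106292000-106292999 L1 to L3 were at 90.4%, 86.6% and 100%, against 89.0% to 94.1% in the 6 Tet2-null libraries and 80.6%, 80.8% and 68.8% in N1 to N3. At chr7:25906000-25906999 they were at 85.5%, 75.2% and 77.5%, against 75.3% to 94.9% and 68.9%, 70.0% and 69.3%. At chr5:66506000-66506999 they were at 92.3%, 75.4% and 90.4%, and at chr10:80731000-80731999 at 21.02%, 32.9% and 24.5%. None of these 4 differed from the nonleukemic double mutant in the quasi-binomial test (adjusted p = 0.918, 0.931, 0.754 and 0.154), which does not show that they were equal.

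**Figure D5:**
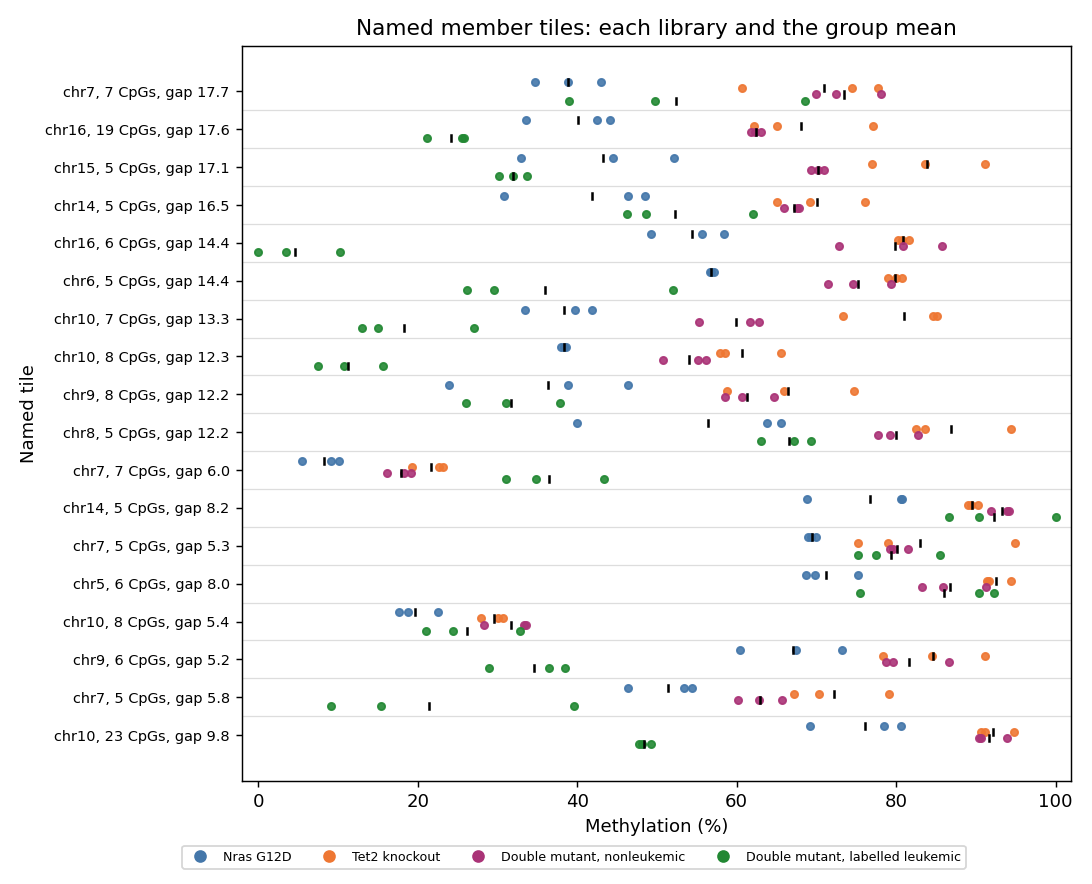
Methylation (%) of the named Tet2-null-high tiles in each library (points, coloured by group) with the group mean (black bar). The leukemic points are left of the Nras(G12D) points in several tiles, such as the chr16 tile with 6 CpGs, and right of all other points only in the chr7 tile with 7 CpGs and a gap of 6.0 points.

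At the Muc20 start the matched CpGs lay on both sides of the start site. Its tile, chr16:32797000-32797999 (10 CpGs, gap 9.71 points), was at 64.7%, 59.0% and 67.7% in N1 to N3, 80.7%, 77.4% and 81.0% in T1 to T3, and 78.9%, 84.4% and 81.8% in TN1 to TN3. L1 to L3 were at 44.2%, 48.1% and 52.8%, below every other library. The leukemic mean differed by -33.4 points from the nonleukemic double mutant (adjusted p = 4.52e-05, quasi-binomial test) and by -15.4 points from Nras(G12D) (adjusted p = 0.0149). The nonleukemic double mutant was chosen high here, so part of the first difference is set by the choice. The 6 matched CpGs lay from 94 bases before to 41 bases after the start of Muc20. The 2 CpGs at -54 and -38, the last 2 capital pairs in the sequence, separated all 6 Tet2-null libraries from all Nras(G12D) libraries. At -54 the group means were 52.4% in Nras(G12D), 77.0% in Tet2(-/-), 79.8% in nonleukemic double mutants and 22.1% in leukemic libraries. At -38 they were 33.7%, 65.9%, 56.9% and 27.5%. Without RNA in these data, no expression of Muc20 can be set beside them.

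The tile upstream of 1700030C10Rik, chr12:20821000-20821999, held 25 CpGs, the most of any Tet2-null-high tile. Its level was 28.3%, 25.1% and 22.2% in N1 to N3, 34.5% to 49.9% in the 6 Tet2-null nonleukemic libraries, and 44.4%, 21.2% and 30.8% in L1 to L3. The leukemic libraries lay on both sides of the gap. Of the 9 matched CpGs shown in the sequence, 6 were covered in all libraries and none of them was separated on its own. The nonleukemic double mutant mean was below Nras(G12D) at -193, -195 and -231 and above it at -205, -220 and -237. The Tet2(-/-) mean was above Nras(G12D) at each of these 6. The shown stretch thus does not stand for the level of the whole tile. The Gm33197 tile, chr13:57348000-57348999, has 3 CpGs and as few as 71 reads in a library, summed over its CpGs. It was at 73.7%, 77.5% and 73.2% in N1 to N3, 86.7% to 96.5% in the 6 Tet2-null nonleukemic libraries and 99.0%, 74.1% and 98.4% in L1 to L3.

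Few starts of known blood, RAS and methylation genes could be checked. Of 73 genes listed, the promoters of 7 were matched to an eligible tile, and 0 of these 7 tiles were Tet2-null-high: Gata2 (a stem cell transcription factor), Id2, Flt3 and Gata3 (lymphoid and progenitor regulators), Spred1 and Nf1 (inhibitors of RAS signalling) and Dnmt3a (a DNA methyltransferase). Their Nras(G12D) levels were 0.0496% to 1.73%, and the highest gap was -0.0652 points. Of all eligible tiles 0.268% were Tet2-null-high, and of those under 20% in Nras(G12D) 0.0715% were. A count of 0 among 7 such tiles therefore says little about these genes. For the other genes, whether a Tet2-null-high tile lies at their start was not determined.

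Within Tet2-null-high tiles most CpGs moved together, which the choice favours. Of 1011 CpGs, 928 (91.8%) had a higher mean in the 6 Tet2-null libraries than in Nras(G12D), and 337 (33.3%) were separated on their own. Every CpG was higher in 147 tiles, every CpG was separated in 4 and none in 33. At the 110 CpGs read on both strands, both strands were higher in 90 (81.8%) and the strands went opposite ways in 18. The strands of a CpG come from different fragments of the same library.

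The higher level did not extend far along the chromosome. At the 54 eligible tiles 1 kb from a Tet2-null-high tile, the 6 Tet2-null libraries were above Nras(G12D) by a median of 1.42 points, with 64.8% higher, against 0.261 points and 61.6% over all tiles. At 2 kb the median was 0.338 points (46 tiles), at 5 kb 0.457 (44 tiles) and at 10 kb 0.689 (31 tiles). Of the tiles at 1 kb, 34 were over 80% and 10 under 10% in Nras(G12D), so many had little room to differ.

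The 3 Tet2-null-high tiles just inside the threshold had gaps of 5 points at chr19:21424000-21424999, 5.04 at chr2:120308000-120308999 and 5.05 at chr16:79920000-79920999. Leukemic levels there were 98.0%, 48.7% and 86.9%, then 13.4%, 11.9% and 1.03%, then 88.1%, 77.6% and 85.2%. Just outside were chr9:60905000-60905999, with a gap of 4.998 points and leukemic levels of 2.12%, 3.38% and 0.370%, chr1:137068000-137068999 with 4.99 points and 50.7%, 63.0% and 78.4%, and chr17:84514000-84514999 with 4.97 points and 24.5%, 14.1% and 22.3%.

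Each library was also left out of the choice in turn, and its level was read at the tiles chosen without it. The tiles chosen without T1, T2 or T3 (289, 291 and 287) had the library left out above every Nras(G12D) library in 85.5%, 84.2% and 86.8%, against 28.1%, 37.3% and 31.2% of all tiles. Chosen without TN1, TN2 or TN3 (282, 279 and 292 tiles), the library left out was above every Nras(G12D) library in 91.1%, 91.4% and 90.1%, against 27.2%, 25.2% and 25.5%. Without N1, N2 or N3 the rule took 537, 697 and 531 tiles, and the library left out was below all 6 Tet2-null libraries in 59.8%, 60.4% and 58.9%, against 19.6%, 17.1% and 19.8%. Fewer Nras(G12D) libraries thus let in more new tiles than fewer Tet2-null libraries did. The Nras(G12D) libraries were still chosen low when a Tet2-null library was left out, and the Tet2-null libraries high when an Nras(G12D) library was. This favours all of these shares. Of all tiles 32.4% were under 20% and 54.3% over 80% in Nras(G12D), where there is less room to be separated.

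Libraries T1, T2 and TN1 had reads at 251 to 360 listed positions of chromosome Y, and the other 9 libraries at 2 to 18. Without these 3 libraries the rule took 648 tiles, and T1, T2 and TN1 were above every Nras(G12D) library in 84.1%, 80.2% and 86.1% of them, against 28.1%, 37.3% and 27.2% of all tiles. N1 to N3 were still chosen low there, which favours these shares. Positions listed in all Nras(G12D) and leukemic libraries and in no other numbered 307, and those listed in all Tet2(-/-) and nonleukemic double mutant libraries and in no other numbered 257. None of the 208 Tet2-null-high tiles lay within 100000 bp of such a position, against 0.692% of all tiles.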

How the data were processed

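Genomic DNA of 12 LSK libraries was cut with MspI, selected for fragments of 150 to 400 bp, converted with bisulfite, PCR-amplified and sequenced as single-end reads of 50 bp, per the labels' protocols. The submitters' processing notes name Bismark and the build mm9 (NCBIM37); the Bismark version is not given in the sources used here. The deposited tables give, per the file headers, the coverage of each CpG strand position (a read count) and the percent of C and of T among them. Every deposited position has a coverage of at least 10 reads, so CpGs below that were not analysed here. Reads with C and T were computed from coverage and percent; positions where other bases were read were 1.11% to 2.77% of a library. Coverage summed over positions was 96300485 to 199736369 per library, with a read counted at each position that it covers. The median was 70 to 147 reads per tested CpG. PCR copies cannot be told apart, so coverage overstates molecules.

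Strands were summed, 880827 CpGs outside chromosome 3 had at least 10 reads in all 12 libraries, and tile levels are methylated over total reads. Tiles were tested with a quasi-binomial model on group (8 residual degrees of freedom), dispersion moderated with limma's squeezeVar and floored at 1, an F test per contrast and Benjamini-Hochberg adjustment over all 77655 tiles. The model was also run on simulated data, which is no support for the calls since no outcome is given here. Alternatives were a coverage minimum of 20, a filter on CpGs above the 99.9th percentile of coverage, other tiles and gaps, separate strands, unweighted means, limma on log2((methylated + 1)/(unmethylated + 1)), fits on 6 or 9 libraries, a replicate block and each library left out. The fit without the 3 libraries with chromosome Y reads was chosen after seeing the data. Named tiles were the 10 with the widest gap, the 5 highest in leukemia against the 6 Tet2-null libraries and the 5 lowest against Nras(G12D), each with at least 5 CpGs, plus the 3 on each side of the threshold and those matching a promoter. Replicate numbers did not pair the libraries (same-numbered libraries of different groups had correlated deviations of -0.0385 to 0.0350 over 10638 tiles). The members, gene lists and tests were chosen with earlier results of these data known. No mm9 genome or annotation was used, and coordinates of GRCm38.p6 were not used. Python 3.11.15, NumPy 2.4.6, pandas 2.3.3, SciPy 1.17.1, R 4.3.3 and limma 3.58.1 were used.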

Additional observations from a re-analysis of the deposited data

Results flagged for a closer look

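The rule left chromosome 3 out, and signal there stood apart in the deposited tables. Of the 307 positions listed in all Nras(G12D) and leukemic libraries and in no other, 265 were on chromosome 3, and of the 257 listed in all Tet2(-/-) and nonleukemic double mutant libraries and in no other, 177 were. Positions listed in all Tet2(-/-), nonleukemic and leukemic double mutant libraries and in no other numbered 104, with 9 on chromosome 3. On this chromosome, more positions set the leukemic libraries with Nras(G12D) than with the 6 Tet2-null nonleukemic libraries. Chromosome 3 holds 4.401% of the positions listed in all 12 libraries. The same rule applied to chromosome 3 took 11 of 3507 tiles (0.314%, against 0.268% on the other autosomes), with all 3 leukemic libraries under the Tet2-null range in 6 of the 11. What sets these positions apart, and whether they bear on the Tet2(-/-) label of the leukemic libraries, was not tested.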

How the results depend on the processing

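The number of Tet2-null-high tiles was 76 with at least 5 CpGs, 49 with a gap of 10 points, 695 with a gap of 2 points and 648 without the 3 libraries with chromosome Y reads, and 208 to 697 with each library left out. The share with every leukemic library below the Tet2-null range was 75.5% at a gap of 10 points, 48.2% at 2 points and 43.2 to 70.7% with each library left out. The share at or below the highest Nras(G12D) library was 43.4% with at least 5 CpGs and 21.04 to 45.7% with each library left out. The median leukemic minus nonleukemic difference was -20.9 points with at least 5 CpGs, -19.2 with boundaries shifted by 500 bp, -15.4 with unweighted means, -24.8 and -11.9 at gaps of 10 and 2 points, -14.7 without the chromosome Y libraries, and -18.6 to -12.2 with each library left out. The median leukemic minus Nras(G12D) difference was -1.74 points at a coverage of 20, -2.29 with at least 5 CpGs, -2.09 with shifted boundaries, -0.735 with 500 bp tiles, -0.0534 with unweighted means, 0.368 and -0.120 at gaps of 10 and 2 points, 0.354 without the chromosome Y libraries, and -1.77 to 3.16 with each library left out, so it had no settled sign. Calls in either direction against the nonleukemic double mutant numbered 89, and were 3 with limma, 51 in a fit on the 6 libraries compared and 44 to 104 with each library left out. Against Tet2(-/-) they numbered 113, and were 38, 46 and 77 to 119. Against Nras(G12D) they numbered 24, and were 0, 9 and 9 to 30. Between the nonleukemic groups they numbered 0, and were 0 to 0 with each library left out. With the replicate number as a block, 76 tiles were called against the nonleukemic double mutant, 100 against Tet2(-/-) and 16 against Nras(G12D); the numbers do not pair these libraries. The causes were not tested, except that a smaller gap, fewer libraries or more CpGs change the number of tiles by construction. Depth limits tiles with 3 CpGs most, where a library can rest on 30 reads summed over CpGs.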

Other observations

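The mirrored rule, with every Nras(G12D) library at least 5 points above the highest of the 6 Tet2-null nonleukemic libraries, took 13 tiles, against 208 for the rule itself. Any gap above 0 separated 2282 tiles in the direction of the rule and 475 in the mirrored one. In 4 of the 13 mirrored tiles all 3 leukemic libraries were at or below the highest of the 6, and in another 4 all 3 were above it. On chromosome X, 3 of 1727 tiles passed the rule, and in 0 of them were all 3 leukemic libraries under the Tet2-null range.

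By class, the 18 Tet2-null-high tiles with an Nras(G12D) mean under 20% had a median leukemic minus Nras(G12D) difference of 2.29 points, and in 1 of them every leukemic library was at or below the highest Nras(G12D) library. Among the 168 tiles of 20 to 80% that pattern held in 60, and among the 22 over 80% in 6. The widest leukemic range, 66.7 points, was at a tile with 3 CpGs, chr16:95772000-95772999, which was chosen after its values were seen.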
